A study of Homo sapiens with 6 samples.

Results

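The nuclear-encoded subunit genes of respiratory complexes I to IV were compared between HCT116 cells depleted of Matrin3 and their control. Members were chosen by symbol: protein-coding genes named NDUFA, NDUFB, NDUFC, NDUFS or NDUFV with a number, the 4 SDH genes, the UQCR genes, CYC1, and COX4 to COX8. Of the 58884 gene IDs measured, 196 had a symbol of this form. Of these, 126 were not protein-coding, 120 of them pseudogenes, which left 70 members. Grouped by symbol, complex I had 39 members, complex II 4, complex III 10 and complex IV 17. They were spread over 21 chromosomes, with 11 on chromosome 19.

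HCT116 is an established human colorectal cancer line. Cells received a negative control siRNA (siCTRL) or a pool of siRNAs against Matrin3 (siMatrin3), a nuclear RNA- and DNA-binding protein, and RNA was taken 48 h later, with 3 libraries in each group. Both groups were therefore transfected, and no untransfected cells were included. All libraries come from 1 cell line and 1 siRNA pool, so the p-values measure the spread between cultures of that line.

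The respiratory chain of the inner mitochondrial membrane passes electrons from NADH, through complex I, and from succinate, through complex II, to ubiquinone. Complex III passes them on to cytochrome c, and complex IV to oxygen. Complexes I, III and IV pump protons as they do so, and all but complex II also hold subunits encoded by mitochondrial DNA, so their assembly needs products of both genomes. Most of their subunits are nuclear-encoded, among them core subunits that carry redox centres and many small accessory subunits.

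The siRNA target was reduced in every treated library. MATR3 stood at 363, 343 and 330 CPM (counts relative to the library total, after TMM adjustment) in siCTRL and at 72.4, 67.9 and 71.4 CPM in siMatrin3, with a log2 fold change of -2.29 ± 0.06 (SE, n = 3 against 3, edgeR quasi-likelihood test, adjusted p = 7.58e-11). Total expected counts ranged from 4556658 to 8400412 per library. Of the epithelial markers, KRT8, KRT18, KRT19, EPCAM and CDH1 were high enough to test, and KRT19 and EPCAM rose (log2 fold changes of 0.23 and 0.28). CDX1 was listed at 0, and VIL1 and LGR5 were at or near 0. Of 6 fibroblast markers 4 were at 0 throughout and only COL1A1 was tested, none of 6 blood markers was tested, and of 6 neural markers SYT1, MBP and TUBB3 were tested and did not pass.

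The subunit genes were abundant. In TPM (a level scaled by transcript length and to a fixed sum within each library), the median siCTRL level of the 62 members high enough to test was 73.5 TPM, beside 11.0 TPM over all 14334 genes tested. By complex, the median siCTRL level was 60.3 TPM in complex I, 73.6 TPM in complex II, 110 TPM in complex III and 161 TPM in complex IV. The highest levels were those of COX7C at 321 TPM and COX4I1 at 319 TPM, both of complex IV, followed by UQCRH at 255 TPM and UQCRQ at 224 TPM, of complex III. The libraries of COX7C and COX4I1 interleaved, so their order was not set by these data. The lowest tested member was NDUFV3, an accessory subunit of complex I, at 16.2 TPM. UQCRFS1, the Rieske iron-sulfur protein of complex III, stood at 25.3 TPM, below every other tested member of that complex. That rank depends on its effective length of 3037 bases. In counts, UQCRFS1 had a siCTRL mean of 74.8 CPM. That was above UQCRQ (60.6 CPM), UQCR11 (52.4 CPM) and UQCR10 (37.3 CPM) and below the rest of the complex. Subunit transcripts were also short, with a median effective length of 614 bases beside 2083 bases over all genes tested.

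**Figure D1:**
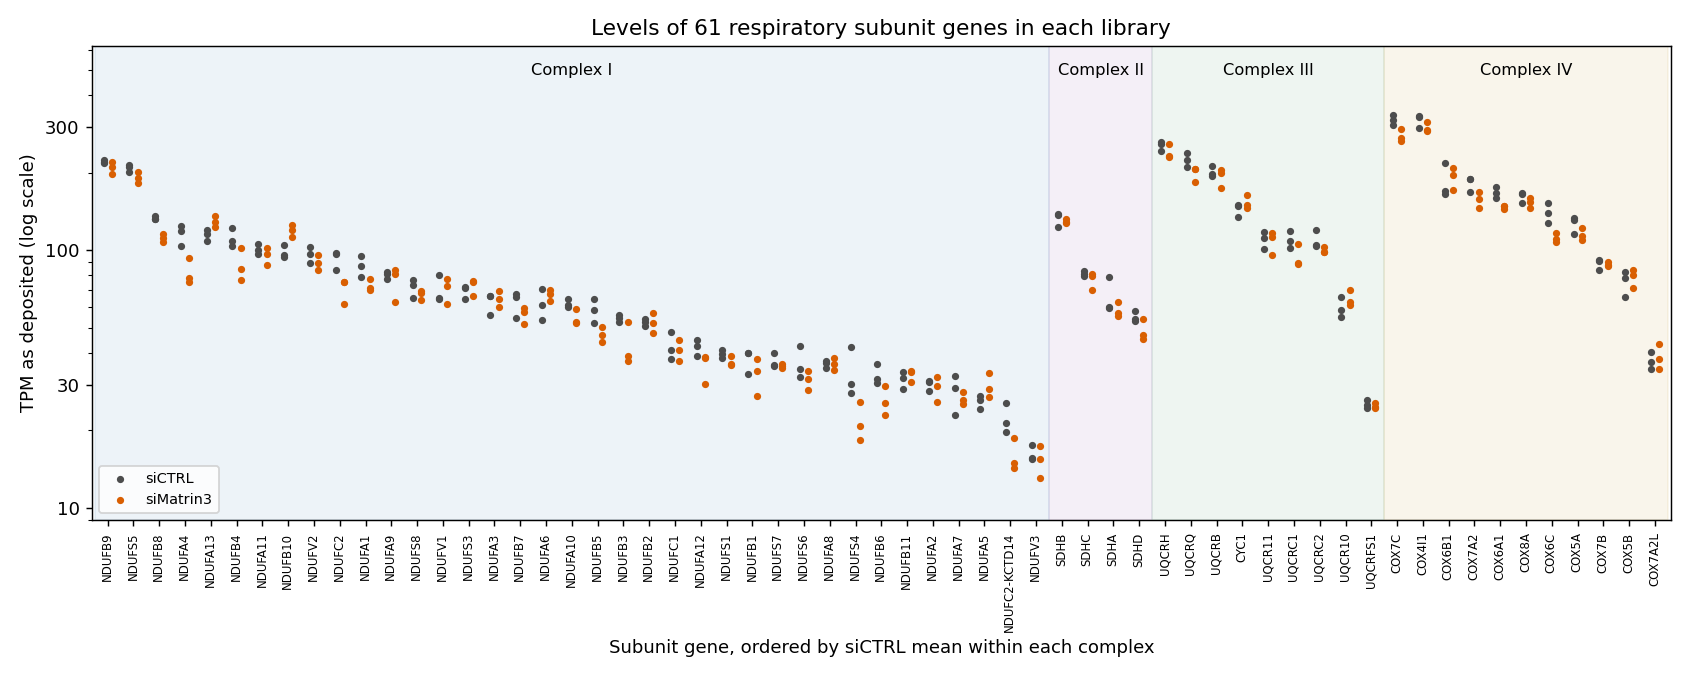
TPM on a log axis of 61 of the 62 tested subunit genes, ordered by siCTRL mean within each complex. Each point is 1 library (3 siCTRL in grey, 3 siMatrin3 in orange). Levels run from 16.2 TPM for NDUFV3 to 321 TPM for COX7C, and the libraries of both groups lie close together for most genes.

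Of the 8 members not tested, 4 had no counts in any library. These were COX4I2, COX6A2, COX7B2 and COX8C, and 0 of the 38520678 counts in the 6 libraries allows a level of up to 0.0779 CPM (3 counts, counting error only). COX6B2 had 55 counts in all, 5, 18 and 14 in siCTRL and 8, 4 and 6 in siMatrin3. In TPM it stood at 0.73, 1.69 and 3.87 against 0.70, 0.50 and 0.61, without overlap, on too few counts to test. NDUFA4L2 had 29 counts, COX7A1 17 and UQCRHL 6.8. Each of the 8 is an alternative copy of a subunit gene that was expressed here. Heart and muscle isoforms such as COX6A2 and COX7A1, the lung isoform COX4I2 and the testis isoforms COX6B2 and COX7B2 are known for their restriction to those tissues.

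Their broadly expressed counterparts carried the signal. COX4I1 measured 173, 193 and 185 CPM in siCTRL and 195, 186 and 189 CPM in siMatrin3. COX6A1 measured 79.4, 86.2 and 75.4 CPM against 73.0, 76.8 and 78.1 CPM, COX6B1 67.5, 75.9 and 63.2 CPM against 76.7, 79.7 and 68.8 CPM. COX7A2 was at 56.3, 66.9 and 64.3 CPM in siCTRL and 61.0, 61.5 and 56.8 CPM in siMatrin3. In all 4 of these genes the groups overlapped. COX7A2L, a relative of COX7A2 with a role in respiratory supercomplexes, also overlapped, at 37.3, 39.5 and 37.9 CPM against 45.0, 39.0 and 39.6 CPM. COX8A was at 65.8, 73.5 and 70.6 CPM against 70.9, 74.9 and 69.7 CPM. COX7B ran from 41.9 to 45.3 CPM in siCTRL and from 45.8 to 46.0 CPM in siMatrin3, without overlap, with a log2 fold change of 0.07 ± 0.07 that did not pass the test (adjusted p = 0.618, edgeR). UQCRH, the hinge protein of complex III and the expressed partner of UQCRHL, was at 118, 128 and 123 CPM against 119, 134 and 124 CPM.

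The promoters of the subunit genes held some sequence features that their choice by symbol did not use. RefSeq windows on GRCh38.p14, running from 250 bases before to 50 bases after the gene start, were matched for 56 of the 70 members and searched on both strands. Letters known from binding sites of factors that act on nuclear genes for mitochondrial proteins were counted. The full NRF1 letters, in capitals in the NDUFB4 and SDHD sequences, stood in 3 member windows (5.36%) beside 1.75% of all 15843 protein-coding windows. The shorter GCATGCGC contained in them stood in 9 (16.1%) beside 4.26%. The ETS letters CCGGAAG, as bound by GABPA, stood in 15 (26.8%) beside 14.2%, and the YY1 letters AAGATGGCG in 7 (12.5%) beside 2.74%. Any of NRF1, ETS or YY1 stood in 23 member windows (41.1%) beside 17.6%. The SP1 letters GGGCGGG were in 13 windows (23.2%) beside 44.4%, CCAAT in 19 (33.9%) beside 36.4%, and TATAAA in 6 (10.7%) beside 9.63%. These are matches of letters, given as a description without a test. Stretches of 30 bases around a match are given for 1 or 2 genes of each complex, to show the letters in their context. The match is in capitals, and each sequence reads 5′ to 3′ on the strand of its gene.
NDUFB4 of complex I, NRF1 letters, chr3:120596167-120596196, plus strand: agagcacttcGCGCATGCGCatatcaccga
SDHD of complex II, NRF1 letters, chr11:112086753-112086782, plus strand: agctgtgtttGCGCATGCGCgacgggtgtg
SDHB of complex II, ETS letters, chr1:17054142-17054171, minus strand: cacccgggaaaCCGGAAGccgcctcccact
UQCRQ of complex III, ETS letters, chr5:132866577-132866606, plus strand: aatggtatctcCCGGAAGttacctcacgac
COX5B of complex IV, ETS letters, chr2:97646014-97646043, plus strand: gaagcccgcccCCGGAAGtccctcctgtct

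Few subunit genes changed after Matrin3 depletion, and NDUFB10 changed most among those that did, by 31.5%. Of the 62 tested members, 2 rose and 2 fell (edgeR quasi-likelihood test, adjusted p under 0.05 over all 14334 genes), or 6.45%, beside 10.9% of all genes tested, 5.68% higher and 5.18% lower. NDUFB10 and NDUFA13, accessory subunits of complex I, rose, while UQCRC2 of complex III and SDHC of complex II fell. By complex, 2 of 38 tested genes rose and 0 fell in complex I, 0 rose and 1 of 4 fell in complex II, 0 rose and 1 of 9 fell in complex III, and 0 of 11 passed in complex IV. At an unadjusted p under 0.05 stood 14 members (22.6%), beside 25.1% of all genes, 1 of the 14 in complex IV. With RSEM's effective transcript lengths in the model as an offset no member was called (7 at an unadjusted p under 0.05), beside 1.42% of all genes, and the spread between replicates was wider, with a median SE of 0.11 over members. Libraries were made from whole cultures, in which fewer cells of a type and less RNA per cell cannot be told apart.

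The list as a whole stayed near 0. The median log2 fold change of the tested members was 0.01, beside -0.00 over all genes, with 34 members above 0 and 28 below. The median was 0.01 in complex I, -0.04 in complex II, 0.04 in complex III and 0.03 in complex IV. The median absolute log2 fold change was 0.10 over members and 0.16 over all genes, with a median SE of 0.08 over members and 0.12 over all genes. For 56 of the 62 members the 95% interval of the log2 fold change lay within ±0.5, and for 23 it lay within ±0.25. In CPM, the groups did not overlap in 10 members that were higher in siMatrin3 (16.1%, beside 15.0% of all genes) and in 8 that were lower (12.9%, beside 14.7%).

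**Figure D2:**
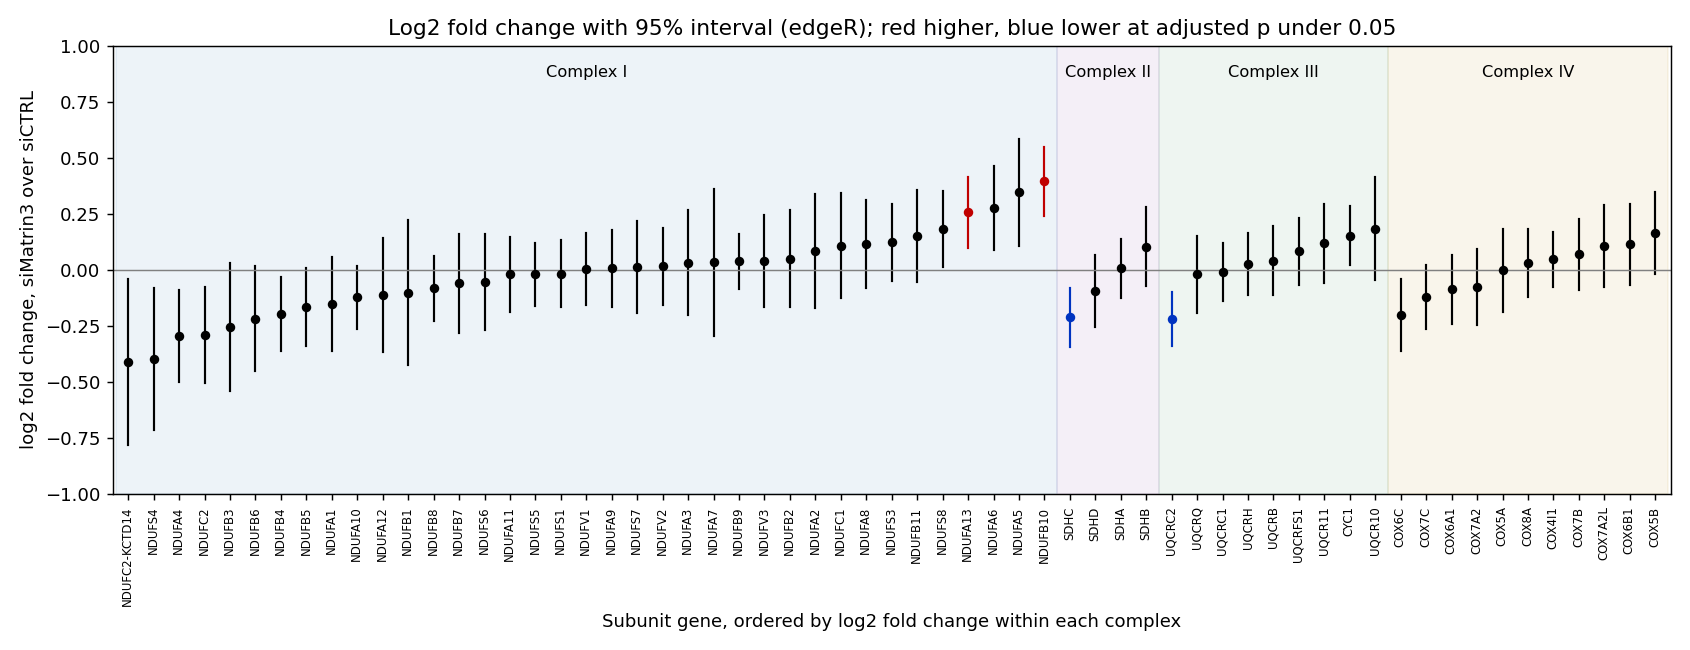
Log2 fold change of siMatrin3 over siCTRL with its 95% interval (edgeR) for 61 of the 62 tested subunit genes, ordered within each complex. NDUFB10 and NDUFA13 (red) are higher and SDHC and UQCRC2 (blue) lower at an adjusted p under 0.05. The values run from -0.41 to 0.39.

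Complex I, with 38 of the 62 tested members, held both rises (5.26% of its tested genes, beside 5.68% of all genes) and the widest range. Its core subunits carry the flavin and iron-sulfur centres or the surrounding catalytic fold, and none passed the test. Their log2 fold changes ran from -0.02 for NDUFS1 to 0.18 for NDUFS8, with a median of 0.02. The 31 other tested members, as grouped by symbol, ran from -0.41 for the readthrough gene NDUFC2-KCTD14 to 0.39 for NDUFB10, with a median of -0.02. Most are accessory subunits, but they include that readthrough gene and NDUFA4, since assigned to complex IV.

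NDUFB10 (ENSG00000140990, hg38 chr16:1959538-1961975, plus strand) encodes an accessory subunit of the membrane arm. It measured 69.3, 62.5 and 62.9 CPM in siCTRL and 87.9, 86.9 and 80.0 CPM in siMatrin3. Every siMatrin3 library was above every siCTRL library. The mean went from 64.9 ± 3.8 to 84.9 ± 4.3 CPM (SD, n = 3 each), a log2 fold change of 0.39 ± 0.07 (SE, adjusted p = 0.00388, edgeR), or 31.5% more. It was called in 14 of 15 alternative analyses of the counts, with log2 fold changes from 0.37 to 0.44. The exception was the fit with the length offset, where the log2 fold change was 0.38 and the adjusted p 0.0667.

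NDUFA13 (ENSG00000186010, hg38 chr19:19515736-19529054, plus strand), also known as GRIM-19 and an accessory subunit of complex I, measured 51.8, 56.5 and 56.4 CPM in siCTRL. In siMatrin3 it measured 61.9, 69.3 and 66.7 CPM, again without overlap. The log2 fold change of NDUFA13 stood at 0.26 ± 0.07 (SE, n = 3 against 3) with an adjusted p of 0.0415 (edgeR). DESeq2 did not call NDUFA13 (adjusted p = 0.121). The gene overlaps YJEFN3 on the same strand in the annotation, so reads there may be split by estimate. Without any of siCTRL 1, 2 or 3 or siMatrin3 2 or 3 the adjusted p was 0.124, 0.0783, 0.101, 0.125 and 0.123 in that order, and without siMatrin3 1 it was 0.0468.

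In an alternative fit the replicate numbers of the labels were taken to pair the libraries, a choice drawn from these same data. The main fit held the group alone. With the number as a block in the edgeR model 7 members passed in place of 4, 4 higher and 3 lower. That was 11.3%, beside 15.8% of all genes. The 3 that joined were all named as complex I genes. Over the 15 alternatives NDUFA4 and NDUFA5 were each called in 5 and NDUFA6 in 2, so not with the block alone. NDUFA5 measured 38.8, 34.2 and 29.8 CPM in siCTRL and 40.1, 49.97 and 40.5 CPM in siMatrin3, without overlap. Its log2 fold change was 0.35 ± 0.11 (adjusted p = 0.0642), and 0.36 with the block (adjusted p = 0.0265, edgeR). NDUFA6 measured 36.3, 40.2 and 43.0 CPM in siCTRL and 44.7, 51.4 and 49.4 CPM in siMatrin3, also without overlap, at 0.28 ± 0.09 (adjusted p = 0.061, and 0.0204 with the block, edgeR). NDUFA4, named for complex I and since assigned to complex IV, measured 55.2, 63.5 and 63.8 CPM in siCTRL and 44.4, 48.6 and 56.8 CPM in siMatrin3. The third siMatrin3 library lay above the lowest siCTRL library, so its groups overlapped. Its log2 fold change was -0.30 ± 0.09 (adjusted p = 0.063, and 0.0155 with the block, edgeR).

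Further complex I members had low values without passing the test. NDUFC2, a subunit of the membrane arm, went from 36.5, 42.7 and 41.0 CPM to 34.3, 35.9 and 28.9 CPM, without overlap, at a log2 fold change of -0.29 ± 0.10 (adjusted p = 0.0796, edgeR). The readthrough gene NDUFC2-KCTD14 shares its exons with NDUFC2 and measured 9.93, 11.2 and 12.5 CPM against 7.54, 8.18 and 9.67 CPM, at -0.41 ± 0.17 (adjusted p = 0.151, edgeR). Reads of these genes may be split by estimate, so they do not count as independent values. NDUFS4, an accessory subunit of the matrix arm, was at -0.40 ± 0.15 (adjusted p = 0.106, edgeR), and its groups overlapped, since siMatrin3 1 at 17.1 CPM was above siCTRL 1 at 17.0 CPM.

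**Figure D3:**
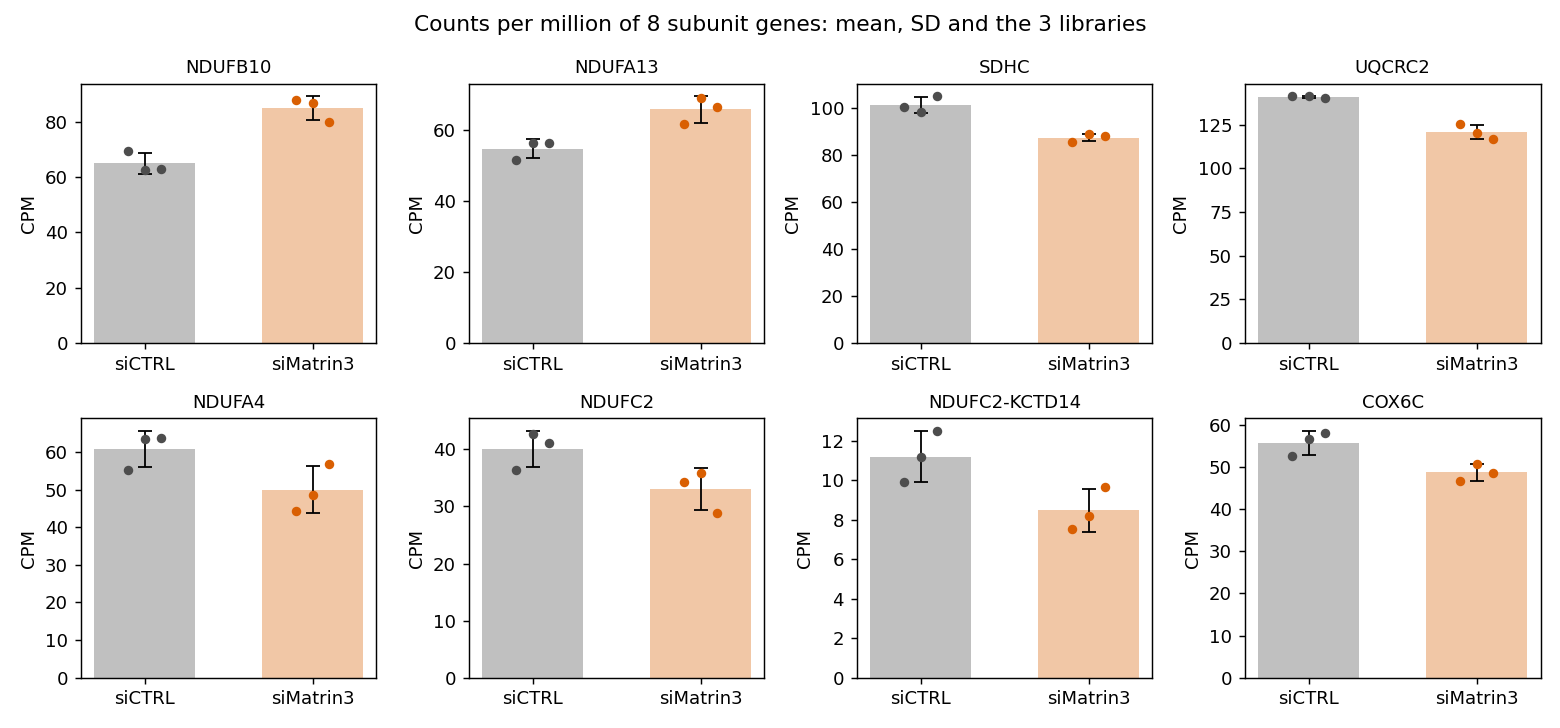
CPM of 8 subunit genes, with bars for the mean, error bars for the SD and points for the 3 libraries of each group. The groups do not overlap in NDUFB10, NDUFA13, SDHC, UQCRC2, NDUFC2, NDUFC2-KCTD14 and COX6C, and overlap in NDUFA4. Only the upper row passed the test.

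Complex II is encoded by 4 nuclear genes. SDHA and SDHB form the catalytic head that oxidises succinate, and SDHC and SDHD anchor it in the membrane. In TPM, SDHB was the highest at 133 TPM in siCTRL, followed by SDHC at 81.0, SDHA at 66.3 and SDHD at 55.0 TPM. The SDHB libraries lay above all others. The third SDHA library, at 78.8 TPM, reached near the lowest SDHC library, at 79.4 TPM, and its lowest, at 59.6 TPM, near the highest SDHD library, at 57.9 TPM.

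SDHC (ENSG00000143252, hg38 chr1:161314381-161363206, plus strand) measured 101, 98.5 and 105 CPM in siCTRL and 85.6, 88.8 and 88.0 CPM in siMatrin3. The groups did not overlap, and the log2 fold change was -0.21 ± 0.06 (SE, adjusted p = 0.0415, edgeR), a fall of 13.7%. Its effective length, the abundance-weighted mean over its transcripts, was 1303, 1197 and 1363 bases in siCTRL and 1042, 1199 and 1011 bases in siMatrin3. With effective length as an offset the log2 fold change was 0.03 (adjusted p = 0.921, edgeR), and in TPM the groups overlapped. Leaving out any of the 6 libraries also ended the call, with adjusted p from 0.0694 to 0.157. DESeq2 (adjusted p = 0.119) and the edgeR fit with no count filter (adjusted p = 0.121) did not call SDHC either.

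The other complex II genes did not pass the test and their groups overlapped. SDHA was at 114, 115 and 125 CPM in siCTRL and 116, 119 and 119 CPM in siMatrin3, with a log2 fold change of 0.01 (95% interval -0.12 to 0.14). SDHB was at 64.5, 70.2 and 57.6 CPM against 67.2, 67.4 and 73.1 CPM, with a log2 fold change of 0.10 (-0.07 to 0.28). SDHD was at 66.2, 63.6 and 67.6 CPM against 58.4, 66.9 and 59.7 CPM, with a log2 fold change of -0.09 (-0.25 to 0.07).

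SDHA has expressed copies. Its annotated pseudogenes held 21.4% of the summed counts of SDHA and its copies, more than for any other member. The pseudogene SDHAP1 fell from 16.6 ± 1.85 to 10.5 ± 0.925 CPM (SD, n = 3 each), at a log2 fold change of -0.65 ± 0.15 (adjusted p = 0.0123, edgeR), while SDHAP4 was at -0.03 and SDHAP3 at -0.10. Reads from near-identical stretches may be split by estimate between these copies and SDHA. Copies held over 5% of the summed counts for UQCRFS1 (11.8%) and NDUFA4 (6.53%) as well. The copy NDUFA4P1 was at 2.99 ± 1.90 CPM in siCTRL and 5.18 ± 1.13 CPM in siMatrin3 (SD), with overlap (adjusted p = 0.201, edgeR). When the counts of copies were added to their parent genes, the same 4 members were called. NDUFA4 then stood at -0.22 (adjusted p = 0.136, edgeR), in place of -0.30 (adjusted p = 0.063, edgeR).

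In complex III, UQCRC2 (ENSG00000140740, hg38 chr16:21953288-21983660, plus strand), the core protein 2, measured 141, 141 and 140 CPM in siCTRL and 125, 120 and 117 CPM in siMatrin3. The groups were well apart, and the log2 fold change was -0.22 ± 0.06 (SE, adjusted p = 0.0240, edgeR), a fall of 14.2%. In TPM the groups did not overlap either, at 120, 104 and 104 TPM in siCTRL and 98.5, 103 and 98.7 TPM in siMatrin3, with siCTRL 3 and siMatrin3 2 closest to each other. Its effective length was 1212, 1363 and 1405 bases in siCTRL and 1232, 1102 and 1105 bases in siMatrin3, with overlap between the groups, and with the offset the log2 fold change was -0.02 (adjusted p = 0.938, edgeR). The call was also lost without siCTRL 1 (0.0618), siCTRL 2 (0.0720), siCTRL 3 (0.0753), siMatrin3 2 (0.0574) or siMatrin3 3 (0.0974), given as adjusted p, and held without siMatrin3 1 (0.0391). DESeq2 (adjusted p = 0.0522) and the edgeR fit with no count filter (adjusted p = 0.0620) did not call UQCRC2 either. Its partner UQCRC1 was at -0.01 (95% interval -0.14 to 0.12).

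The redox subunits of complex III did not pass. CYC1, the cytochrome c1 subunit, measured 166, 168 and 152 CPM in siCTRL and 189, 172 and 179 CPM in siMatrin3, without overlap. Its log2 fold change was 0.15 ± 0.06 (adjusted p = 0.131, edgeR). UQCRFS1 was at 0.08 ± 0.07. The small subunits UQCRQ, UQCRH, UQCRB, UQCR11 and UQCR10 lay between -0.02 and 0.18.

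None of the 11 tested members of complex IV, as grouped by symbol, was called, beside 10.9% of all genes. NDUFA4, at a log2 fold change of -0.30, is counted with complex I throughout and is not among them. The 11 ran from -0.20 to 0.16 in log2 fold change. COX6C had the lowest p of these, with 52.7, 56.7 and 58.1 CPM in siCTRL and 46.8, 50.8 and 48.7 CPM in siMatrin3, without overlap, at -0.20 ± 0.07 (adjusted p = 0.106, edgeR). It overlaps VPS13B on the opposite strand in the annotation. COX5B measured 40.8, 48.2 and 49.0 CPM in siCTRL and 53.1, 53.5 and 49.1 CPM in siMatrin3, which left a narrow gap between the groups, at 0.16 ± 0.08 (adjusted p = 0.252, edgeR). For all 11 members the 95% interval lay within ±0.5. Of the members highest in siCTRL TPM, COX4I1 was at 0.05 (-0.08 to 0.17) and COX7C at -0.12 (-0.27 to 0.02).

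In TPM the values of members sat lower, as did those of the whole table. The median difference in log2(TPM + 1) was -0.09 over the tested members and -0.09 over all genes, with 15 members above 0 and 47 below. No member passed the adjusted test (limma-trend), beside 1.04% of all genes, while 19 members (30.6%) had an unadjusted p under 0.05, 2 of them higher and 17 lower, beside 17.9% of all genes, 3.88% higher and 14.0% lower. DESeq2 on the counts called 1 member, NDUFB10, beside 8.97% of the genes to which it gave an adjusted p. In TPM, the groups did not overlap in 2 members that were higher (3.23%, beside 5.48% of all genes) and in 19 that were lower (30.6%, beside 18.4%). The lowest adjusted p was that of NDUFA4, at 104, 118 and 124 TPM in siCTRL and 75.05, 78.4 and 93.7 TPM in siMatrin3, without overlap, with a difference of -0.48 in log2(TPM + 1) (adjusted p = 0.0605, limma). With the replicate block NDUFA4 passed in TPM. NDUFB10 stayed above its controls, at 105, 94.2 and 96.1 TPM against 126, 120 and 113 TPM, with a difference of 0.28 (adjusted p = 0.106, limma), and it passed when TPM was rescaled to protein-coding nuclear genes.

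The share of a library's TPM held by protein-coding nuclear genes moved with this shift, from 41.3%, 41.2% and 41.5% in siCTRL to 40.6%, 39.5% and 38.6% in siMatrin3. After rescaling to those genes alone, the median difference was -0.03 over members and -0.04 over the 12164 protein-coding nuclear genes in that fit. The effective lengths of siCTRL and siMatrin3 did not overlap in 5 tested members that were longer in siMatrin3 (COX4I1, NDUFB8, NDUFA4, NDUFS8 and NDUFS4) and in 2 that were shorter (NDUFA13 and NDUFA3), beside 4.02% and 5.42% of all genes. NDUFS8 was the core subunit whose scales differed most, at 0.18 in counts and -0.09 in log2(TPM + 1), with effective lengths from 595 to 649 bases in siCTRL and from 684 to 693 bases in siMatrin3.

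**Figure D4:**
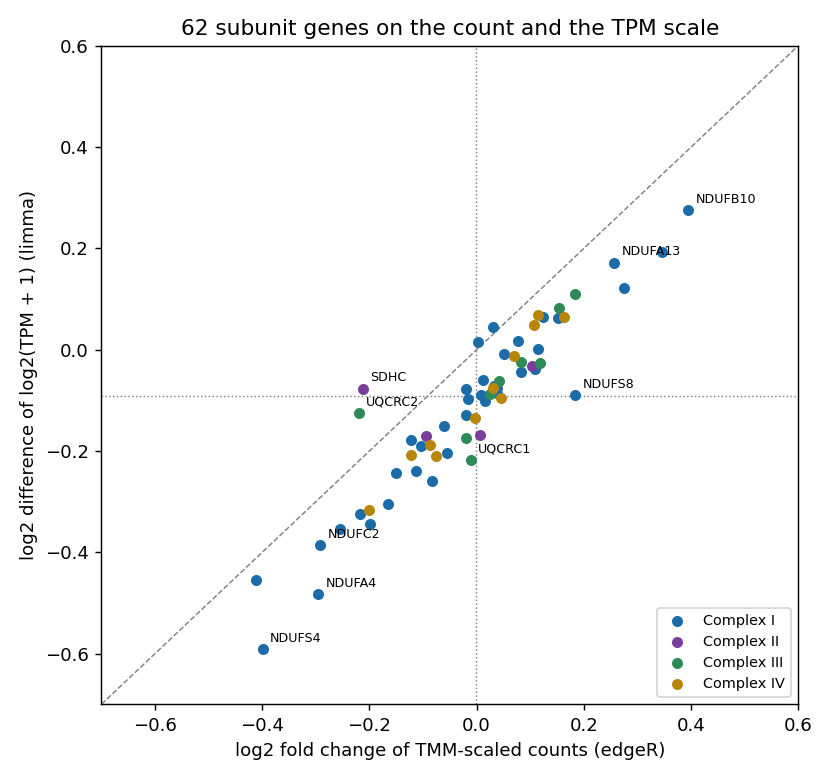
Log2 fold change of counts (edgeR, horizontal) against the difference in log2(TPM + 1) (limma, vertical) for the 62 tested subunit genes, coloured by complex. Dotted lines mark the medians of all genes, -0.00 and -0.09, and the dashed line marks equal values. Most genes lie below the dashed line, while SDHC and UQCRC2 lie above it and NDUFS8 furthest below.

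Summed over each complex, the subunit mRNAs stood in siMatrin3 at 0.919 to 0.950 of their siCTRL level in TPM. Complex I summed to 2553, 2672 and 2679 TPM in siCTRL and 2462, 2480 and 2371 TPM in siMatrin3, a ratio of 0.925. Complex II summed to 329, 335 and 340 TPM against 317, 309 and 315 TPM (0.937), and complex III to 1215, 1266 and 1237 TPM against 1202, 1193 and 1137 TPM (0.950). In these 3 complexes the groups did not overlap in TPM as deposited. Complex IV summed to 1709, 1897 and 1812 TPM against 1677, 1710 and 1591 TPM (0.919), where siMatrin3 2 lay level with siCTRL 1. Rescaled to protein-coding nuclear genes, the ratios were 0.966, 0.978, 0.991 and 0.959 for complexes I to IV. On that scale the groups overlapped in every complex. Complex I, for example, ran from 6188 to 6488 in siCTRL and from 6066 to 6282 in siMatrin3. An exact test of 3 against 3 libraries cannot go below p = 0.1, and the sums were not tested. In raw counts, without TMM scaling, the members together held 0.382%, 0.399% and 0.393% of the siCTRL libraries. In the siMatrin3 libraries they held 0.376%, 0.374% and 0.369%. The TMM factors, by which CPM is further divided, were 1.02, 1.02 and 1.04 in siCTRL and 0.989, 0.961 and 0.969 in siMatrin3. These raw shares are therefore not on the CPM scale, on which the median log2 fold change of members was 0.01.

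**Figure D5:**
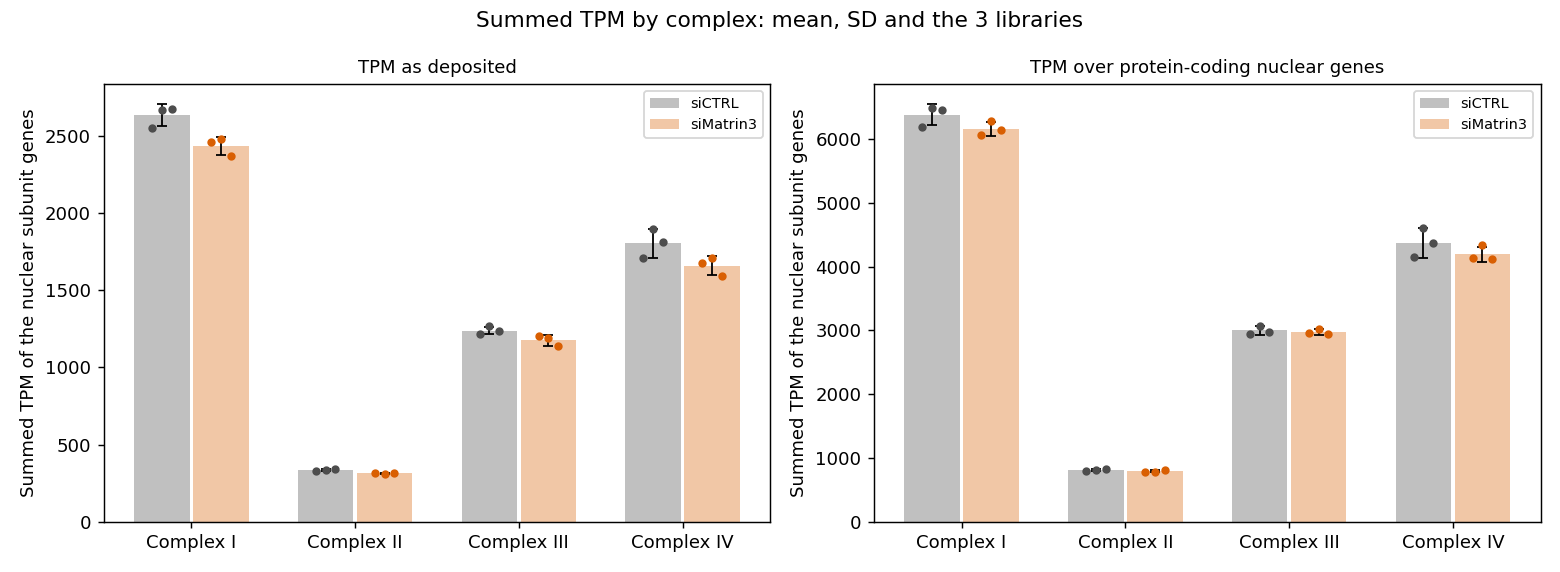
Summed TPM of the nuclear subunit genes of each complex, as deposited (left) and rescaled to protein-coding nuclear genes (right), with the mean, SD and the 3 libraries of each group. As deposited, the ratio of siMatrin3 to siCTRL lies between 0.919 and 0.950, and after rescaling between 0.959 and 0.991.

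Genes that work with these subunits were read in the same edgeR fit, in which 10.9% of all genes were called and 25.1% had an unadjusted p under 0.05. None of the 18 tested ATP synthase genes passed, in edgeR or in DESeq2, with 2 at an unadjusted p under 0.05 in edgeR and a median log2 fold change of 0.05. Of the 13 subunits encoded by mitochondrial DNA, the partners of the nuclear subunits in complexes I, III, IV and ATP synthase, only MT-CO1 passed (7.69% of the list), at 5732, 6432 and 5300 CPM against 7251, 7871 and 6622 CPM, or 0.32 ± 0.08 in log2 (adjusted p = 0.0188, edgeR). The median of these 13 was 0.13 on the count scale and 0.01 in log2(TPM + 1). On the count scale 11 were above 0 and 2 below, and 5 had an unadjusted p under 0.05 (edgeR). In log2(TPM + 1) 7 were above 0 and 6 below. Of 50 assembly factors, 2 rose and 3 fell, or 10% of the list, a share near that of all genes, with a median of -0.02. COX10 and COX15 act in making the heme a of complex IV, and COX10 fell (-0.55 ± 0.11, adjusted p = 0.00527) while COX15 rose (0.26 ± 0.06, adjusted p = 0.0160, edgeR). The complex I assembly factor ACAD9 fell (-0.49 ± 0.11, adjusted p = 0.0130), as did TTC19 of complex III (-0.33 ± 0.09, adjusted p = 0.0368), and COA7 of complex IV rose (0.31 ± 0.08, adjusted p = 0.0194, edgeR). COX10 measured 27.8, 30.1 and 32.9 CPM in siCTRL and 22.2, 18.8 and 20.7 CPM in siMatrin3, and was called in 14 of 15 alternative analyses. The others were called less often, ACAD9 in 12, COX15 in 11, COA7 in 10 and TTC19 in 9 of 15, and MT-CO1 in 9 of 14.

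Of 17 tested regulators of mitochondrial genes, 3 rose and none fell, or 17.6% of this short list beside 5.68% of all genes that rose and 5.18% that fell, with a median of 0.08. They were MYC (0.51 ± 0.06, adjusted p = 0.000145), HIF1A (0.23 ± 0.05, adjusted p = 0.0119) and POLRMT, the mitochondrial RNA polymerase (0.25 ± 0.07, adjusted p = 0.0335, edgeR). The list was chosen with earlier results of these data known, so its share of called genes only describes the list. The factors whose letters were searched in the promoters, NRF1, GABPA and YY1, did not pass, at -0.06, -0.21 and 0.08 in log2 fold change. MYC was called in all 15 alternatives, HIF1A in 12 and POLRMT in 10, and POLRMT stood at 0.08 with the length offset. Of 20 electron carriers and other enzymes of the quinone pool, SQOR, which oxidises sulfide, fell (-0.66 ± 0.18, adjusted p = 0.0321, edgeR, called in 9 of 15 alternatives), and none rose, or 5% of the list beside 10.9% of all genes. Among the 4 called subunit genes, the NDUFA13 window held 1 ETS match, the NDUFB10 window held none of NRF1, ETS or YY1, and the UQCRC2 window held CCAAT and TATAAA. No window was matched for SDHC.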

How the data were processed

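HCT116 libraries of 2 groups (siCTRL and siMatrin3, 3 each, biological triplicates per the study's methods) were grouped by their treatment labels. The authors' RSEM tables, made with cutadapt and TopHat on hg19 per the labels, give for each gene an expected count (an estimated number of reads, not normalized between libraries), TPM scaled within each library, and an effective length in bases. The deposited FPKM column was not used. The labels name a stranded mRNA kit, while the methods describe ribosomal RNA depletion with a directional kit. For the annotation release and the strand setting of the counting nothing is given in the sources used here, so reads of overlapping genes and near-identical copies may be split by estimate. The spans of 40 members overlap another gene. Values of 1 tested member are not reported here, though it enters the counts and medians.

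Gene IDs were matched to symbols, types and positions in GENCODE release 44 on hg38 (58472 of 58884 IDs, 99.3%). Expected counts were rounded and filtered with filterByExpr (minimum count 10, minimum total 15). They were scaled by TMM and tested by the quasi-likelihood method of edgeR 4.0.16 (in R 4.3.3), with two-sided p-values adjusted by Benjamini-Hochberg over 14334 genes and called at 0.05. The SE was taken as the size of the log2 fold change over the square root of F. TPM was tested with limma-trend (limma 3.58.1) on log2(TPM + 1), a scale on which changes of low genes are understated. The study's methods name DESeq2, which was run here as an alternative (DESeq2 1.42.0). Depth was 4556658 to 8400412 counts per library, genes varied between cultures by a biological coefficient of 6.44%, and replicate libraries differed by more than sampling noise (chi-square over its degrees of freedom, 2.65 to 4.40). The scripts were tested on simulated data.

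Libraries with the same replicate number deviated together (correlations 0.107, 0.104 and 0.157, beside -0.0842 to -0.0238 for other pairs). The numbers were therefore taken to pair the libraries in an alternative fit, with the number as a block. The main edgeR and limma fits held the group alone, without this pairing. Deviations were taken from the mean of each group, so the negative values follow in part from the positive ones. They are no separate comparison. The pairing comes from the data and the shared number, as the labels name no shared day or batch. Members and gene lists were chosen with earlier results of these data known. Values in each library were to be given for the members past the threshold, the 2 of lowest p in each complex, the SDH genes and pairs of isoform genes, and called genes of the related lists were named. NDUFA5, NDUFA6, NDUFC2, NDUFC2-KCTD14 and NDUFS4 were given in detail after their values were seen. Alternatives were other scalings and filters, protein-coding genes alone, effective lengths as an offset, pseudogene counts added to their parents, the replicate block, DESeq2, a threshold of 0.01, other pseudocounts (0.1 and 5), rescaled TPM and leaving out each library.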

Additional observations from a re-analysis of the deposited data

How the results depend on the processing

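The 2 higher and 2 lower calls became 4 and 1 with no count filter, 0 and 0 with effective lengths as an offset, 1 and 0 with DESeq2, 1 and 0 at an adjusted p of 0.01, and 4 and 3 with the replicate block. They became 3 and 3 with at least 1 CPM in all libraries, and also with protein-coding nuclear genes alone. In both of these fits NDUFA4 and NDUFA5 joined the 4 calls, without a block. With no count filter neither SDHC nor UQCRC2 was called, and the lower call was NDUFA4. Without 1 library the higher calls ranged from 1 to 2 and the lower from 0 to 1. The lower call was UQCRC2 without siMatrin3 1, NDUFB3 without siMatrin3 2 and NDUFA4 without siMatrin3 3. The median log2 fold change of subunit genes ranged from -0.012 to 0.047 over those fits, with the highest without siCTRL 2. Other scalings and added pseudogene counts called the same 4 genes. SDHC was at 0.028 (adjusted p = 0.921, edgeR) with the offset, the opposite sign to its reported value. In that fit the biological coefficient of variation was 12.7% in place of 6.44%, and 1.42% of all genes were called. In TPM, 1 member was called after rescaling to protein-coding nuclear genes and 1 with the replicate block. The ratio of summed TPM was 0.966 for complex I, 0.978 for complex II and 0.991 for complex III after rescaling, and 0.914 for complex II with pseudogene TPM added. The cause of these changes was not tested. The block joined NDUFA4, NDUFA5 and NDUFA6 to the 4 calls and ended none of them. MATR3 was called in all 15 alternatives, from -2.32 to -2.25. DESeq2 gave an adjusted p to 11276 genes. At this depth, the 8 members with the fewest counts could not be tested, and the median SE of 0.08 limits how small a change could be seen.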
